A study of Mus musculus with 4 samples.

Results

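Collagen chain genes encode the alpha chains from which every collagen is built. They were taken here as all genes whose symbol consists of Col, a number, the letter a and a second number, which gave 44 of the 21878 genes in the mRNA table, and 11 of the 4295 circular RNAs (circRNAs) were listed with one of these genes as host. The RNA came from C3H10T1/2, a mouse embryonic mesenchymal stem cell line, in 2 untreated samples, replicates 1 and 2, and in 2 samples exposed to 20 µmol/L of 5-AZA (5-azacytidine, a cytidine analogue that lowers DNA methylation) for 72 hours and then kept in fresh growth medium for 21 days, replicates 101 and 102. The study set the groups against each other to follow the differentiation of these cells into muscle and heart muscle cells. The labels do not say how long the untreated cells had been in culture, so treatment and time in culture cannot be told apart.

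Each collagen molecule is a triple helix of 3 alpha chains that are hydroxylated and folded in the endoplasmic reticulum, secreted, trimmed and cross-linked. Fibrillar collagens make the banded fibrils of skin, tendon, bone and cartilage, network collagens make sheets such as the basement membrane, and fibril-associated collagens sit on fibrils without forming any of their own. Mesenchymal cells are the main source of types I, III, V and VI, whereas types II, IX and XI are known as the collagens of cartilage.

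Levels are FPKM, fragments scaled to transcript length and to the mapped fragments of the sample, summed over the transcripts of a gene, so that genes can be compared per length. A gene was called higher or lower where the adjusted p of limma was below 0.05 and the change exceeded 2-fold on the scale of log2(FPKM + 0.1), and genes with a mean of at least 0.1 FPKM were tested. The mRNA FPKM of a sample summed to between 328410 and 361664, and the numbers of fragments behind them are unknown. Both 5-AZA samples held more RNA of skeletal muscle and adipocyte marker genes than the untreated samples. Whether cells of these types were present was not tested here. All 10 skeletal muscle markers were called higher, against 13.1% of all genes, although 5 of them had an untreated mean under 0.1 FPKM and were tested only because of their level after 5-AZA. Their log2 fold changes ran from 3.17 for Myod1 to 9.79 for Mylpf, the most abundant ahead of Acta1 (9.29), with summed levels of 1.86 and 1.50 FPKM in the untreated samples against 823 and 1260 FPKM after 5-AZA, and 6 of the 7 adipocyte markers tested were called higher, 1 of them from an untreated mean under 0.1 FPKM (log2 fold changes from 2.61 for Cebpa to 7.12 for Cidec, with 6.10 for Fabp4 and 4.89 for Adipoq, the most abundant, and summed levels of 45.7 and 30.4 FPKM against 1073 and 1465 FPKM). Without either 5-AZA sample the calls of Adipoq, Fabp4, Plin1 and Retn were lost. The part of this shift in the collagen results was not tested, and in bulk RNA fewer cells of a type and less RNA per cell cannot be told apart. Of 11 mesenchymal markers summed, the level was 7704 and 7788 FPKM in untreated cells and 4517 and 4270 FPKM after 5-AZA. S100a4 and Vim made up most of this sum, with log2 fold changes of -0.98 (adjusted p = 0.000931) and -0.87 (adjusted p = 0.00119) that did not pass without either 5-AZA sample, that of S100a4 also not under quantile normalization, and 4 of the 10 markers tested passed the adjusted p with higher and 2 with lower levels. The only mesenchymal marker called was Thy1, a surface glycoprotein, at 0.578 and 0.785 FPKM in untreated cells and 10.4 and 14.2 FPKM after 5-AZA (log2 fold change 3.98).

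Collagen chains went in both directions after 5-AZA. Of the 44 chain genes 36 reached the limit for testing, and 8 of these were called higher after 5-AZA, 5 were called lower and 23 were not called. Of all 13199 genes tested, 13.1% were called higher and 1.32% lower. At an adjusted p below 0.05 whatever the fold, 11 chains were higher and 11 lower, against 18.6% and 5.93% of all genes. Both 5-AZA samples lay above both untreated samples for 15 chains and below them for 14, which was the case for 36.8% and 25.4% of all genes, and the groups overlapped for the other 7. The median log2 fold change of the tested chains was -0.06, beside 0.05 for all genes tested. After quantile normalization the calls over all genes were 1041 higher and 886 lower (54.0% higher, against 90.8% of the 1724 and 174 calls on the values as deposited), with a median over all genes of -0.12, and the collagen calls were then 6 higher and 7 lower, around a median of -0.27. The limit on low values lets a gene pass through its high group alone: 32 chains had a mean of at least 0.1 FPKM in the untreated group and 37 in the 5-AZA group.

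**Figure D1:**
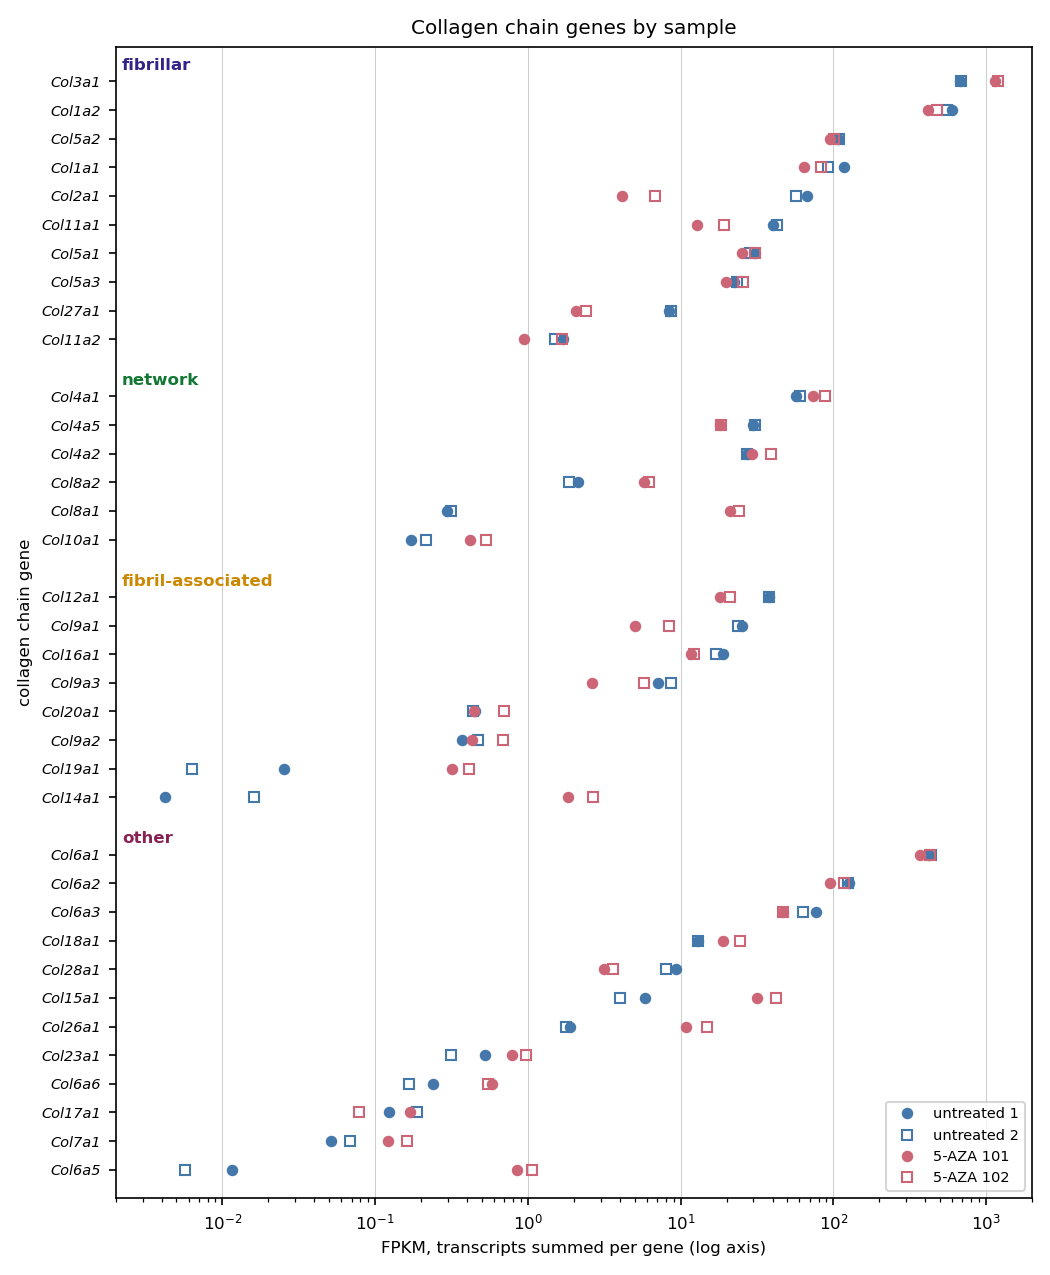
The 36 tested collagen chain genes by structural class, with FPKM in each of the 4 samples on a log axis (blue, untreated; red, 5-AZA; filled and open symbols, the replicates of a group). Col3a1 is at the top of both groups, and for Col8a1, Col14a1 and Col6a5 both red points lie far to the right of both blue points.

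Promoter stretches of 4 called chains, 2 higher and 2 lower, are shown as examples because 5-AZA acts on the methylation of CG pairs, and they were picked after the values were seen. Of the 44 genes 35 had a RefSeq promoter window (mouse build GRCm38.p6, 250 bases before to 50 bases after a start, 38 windows in all). The 250 bases before the start follow for Col8a1 and Col15a1, both called higher, and for Col11a1 and Col27a1, both called lower, in the 5′ to 3′ direction of the gene, with capitals marking each CG pair.
Col8a1 (chr16:57754738-57754987, minus strand): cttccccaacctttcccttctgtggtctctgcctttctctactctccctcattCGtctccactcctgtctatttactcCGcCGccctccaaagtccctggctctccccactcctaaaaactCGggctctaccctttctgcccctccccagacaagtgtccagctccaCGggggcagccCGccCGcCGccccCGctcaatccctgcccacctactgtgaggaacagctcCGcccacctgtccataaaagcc
Col15a1 (chr4:47207762-47208011, plus strand): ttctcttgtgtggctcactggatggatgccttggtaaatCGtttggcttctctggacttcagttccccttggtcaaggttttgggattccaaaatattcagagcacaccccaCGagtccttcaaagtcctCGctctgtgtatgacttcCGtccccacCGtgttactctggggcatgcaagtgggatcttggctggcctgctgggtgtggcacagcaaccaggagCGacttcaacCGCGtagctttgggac
Col11a1 (chr3:114030290-114030539, plus strand): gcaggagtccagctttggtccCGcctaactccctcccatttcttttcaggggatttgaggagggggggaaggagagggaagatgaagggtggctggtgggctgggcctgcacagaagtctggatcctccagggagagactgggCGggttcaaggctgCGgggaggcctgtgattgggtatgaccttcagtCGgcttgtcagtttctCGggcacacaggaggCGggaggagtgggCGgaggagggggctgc
Col27a1 (chr4:63215162-63215411, plus strand): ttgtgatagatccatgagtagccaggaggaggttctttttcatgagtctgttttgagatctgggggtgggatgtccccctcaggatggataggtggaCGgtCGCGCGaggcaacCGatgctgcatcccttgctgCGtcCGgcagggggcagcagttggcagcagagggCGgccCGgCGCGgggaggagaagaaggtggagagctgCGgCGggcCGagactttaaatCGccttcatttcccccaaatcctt
These stretches hold 10 CG pairs for Col8a1, 8 for Col15a1, 7 for Col11a1 and 15 for Col27a1. Over whole windows of 300 bases the chains called higher had a median of 13 CG pairs (range 8 to 32, 6 windows), those called lower a median of 1 (range 0 to 18, 5 windows of 4 genes), all windows of chains a median of 11.5, and all 32851 promoter windows of the genome a median of 7. Chains tested and not called had a median of 12 (range 0 to 37, 21 windows of 19 genes). The windows of Col9a1 held 0 and 1 CG pairs and that of Col28a1 held 0, below every chain called higher, whereas Col11a1 with 9 and Col27a1 with 18 lay within the range of the chains called higher. Either strand of the window was searched for the TATA box letters TATAAA, found in 13.6% of all windows, in 0 of the 6 windows of chains called higher and in 0 of the 5 of chains called lower, and for the E-box letters CANNTG, which muscle and fat transcription factors of the basic helix-loop-helix family read. CANNTG was found in 72.3% of all windows, in 5 of the 6 windows of chains called higher and in 3 of the 5 of chains called lower. Among the 21 windows of chains tested and not called, TATAAA was found in 4 and CANNTG in 9. The called chains Col2a1, Col14a1 and Col26a1 had no window and were not searched. No methylation was measured in these samples.

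Among the 11 fibrillar chain genes 10 were tested by limma, with 0 calls upward and 3 downward, beside 13.1% and 1.32% of all genes tested. The 3 were Col2a1, Col11a1 and Col27a1, all known from cartilage. The median log2 fold change of the class was -0.35 (-0.50 after quantile normalization). Without the limit on fold, 1 fibrillar chain was higher and 5 were lower, beside 18.6% and 5.93% of all genes tested.

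Col3a1, the single chain of type III collagen in skin, vessels and the matrix of muscle, was the most abundant collagen mRNA in every sample, at 676 and 686 FPKM in untreated cells and 1153 and 1191 FPKM after 5-AZA. Both 5-AZA samples lay well above both untreated samples, and its rank by mean level among all genes moved from 65 to 23. The log2 fold change was 0.78 (SE 0.10, adjusted p = 0.0007), which is under the 2-fold limit, and without 5-AZA sample 101 or 102 the adjusted p was 0.0503 or 0.0551. The chains of type I collagen, the main collagen of bone and tendon, moved the opposite way. Col1a2 stood at 600 and 557 FPKM in untreated cells and at 420 and 475 FPKM after 5-AZA. Col1a1 stood at 118 and 92.4 FPKM and then at 64.1 and 83.0 FPKM. Neither gene's groups overlapped, and the log2 fold changes were -0.37 (SE 0.11, adjusted p = 0.0381) for Col1a2 and -0.52 (SE 0.15, adjusted p = 0.0402) for Col1a1. When a sample was left out, the adjusted p of Col1a2 ranged from 0.113 to 0.286 and that of Col1a1 from 0.00612 (without untreated sample 2) to 0.385 (without 5-AZA sample 101).

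The ratio of Col3a1 to Col1a2, chosen after the values were seen, was 1.13 and 1.23 in untreated cells and 2.75 and 2.51 after 5-AZA. By contrast the ratio of the chains of type I, Col1a1 to Col1a2, was 0.197 and 0.166 in untreated cells and 0.153 and 0.175 after 5-AZA, and these ranges overlapped. Col1a1 was thus listed at under 0.2 of the level of Col1a2 in every sample, although the type I molecule holds more alpha 1 than alpha 2 chains.

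The type V chains, which start fibrils of type I collagen, did not pass the test. Col5a2 was at 108 and 109 FPKM in untreated cells and at 95.5 and 100.3 FPKM after 5-AZA (log2 fold change -0.14, 95% confidence interval -0.35 to 0.06, adjusted p = 0.304). Col5a1 was at 30.8 and 28.7 FPKM and then at 25.3 and 30.9 FPKM (-0.09, interval -0.37 to 0.19). Col5a3 was at 22.4 and 23.3 FPKM and then at 19.7 and 25.7 FPKM (-0.02, interval -0.34 to 0.29). For Col5a1 and Col5a3 the 5-AZA samples lay on either side of the untreated ones, and the sign of the change turned when 5-AZA sample 101 was left out. The ratio of Col5a1 to Col5a2 was 0.286 and 0.263 in untreated cells and 0.265 and 0.308 after 5-AZA.

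The cartilage chains gave the largest falls. Col2a1, the chain of type II collagen, was the chain with the largest fall of all 36 tested, from 67.5 and 57.1 FPKM in untreated cells to 4.13 and 6.84 FPKM after 5-AZA. No 5-AZA sample came near the untreated level. The means differed 11.4-fold, with a log2 fold change of -3.52 (SE 0.21, adjusted p = 7.35e-06). Among the chains Col2a1 ranked 8 by mean level in untreated cells and 22 after 5-AZA. Col11a1, the alpha 1 chain of type XI collagen that sits in the core of type II fibrils, was at 40.1 and 43.0 FPKM in untreated cells and at 12.9 and 19.3 FPKM after 5-AZA, 2.58-fold lower in the mean (log2 fold change -1.39, SE 0.18, adjusted p = 0.000527). Col27a1, a fibrillar chain of growing cartilage, was at 8.45 and 8.60 FPKM and then at 2.07 and 2.42 FPKM, 3.80-fold lower (log2 fold change -1.88, SE 0.17, adjusted p = 6.45e-05). For both genes the replicates of a group lay close together beside the gap between groups. Col11a2, the alpha 2 chain of type XI, was not called, at 1.70 and 1.50 FPKM in untreated cells and 0.942 and 1.67 FPKM after 5-AZA. The log2 fold change of Col11a2 was -0.32 (interval -0.99 to 0.35, adjusted p = 0.486 by limma). It was -0.95 under quantile normalization (adjusted p = 0.0471), and its sign turned without 5-AZA sample 101. Without any limit on low values the adjusted p of Col11a1 was 0.0745. Col24a1 was not tested, with at most 0.0129 FPKM in any sample.

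Chondrocyte markers were read beside these chains. Sox9, a transcription factor that chondrocytes require, was at 23.5 and 21.9 FPKM in untreated cells and at 7.91 and 11.3 FPKM after 5-AZA (log2 fold change -1.26, SE 0.17, adjusted p = 0.000754). Matn1, a cartilage matrix protein, was also called lower (0.372 and 0.941 FPKM, then 0.0195 and 0.0718 FPKM, log2 fold change -2.29), a call lost without untreated sample 2 or either 5-AZA sample (adjusted p from 0.0887 to 0.200). Matn3 (3.61 and 3.83 FPKM, then 9.35 and 14.9 FPKM, log2 fold change 1.64) and Comp (1.17 and 1.12 FPKM, then 3.02 and 4.41 FPKM, log2 fold change 1.59), matrix proteins of cartilage and tendon, were called higher, with an adjusted p of 0.0563 and 0.0739 without 5-AZA sample 102. The 7 chondrocyte markers in the table summed to 32.2 and 32.4 FPKM in untreated cells and to 22.5 and 33.7 FPKM after 5-AZA. Acan, the main proteoglycan of cartilage, was at most 0.111 FPKM in any sample and Chad was listed at 0 throughout.

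**Figure D2:**
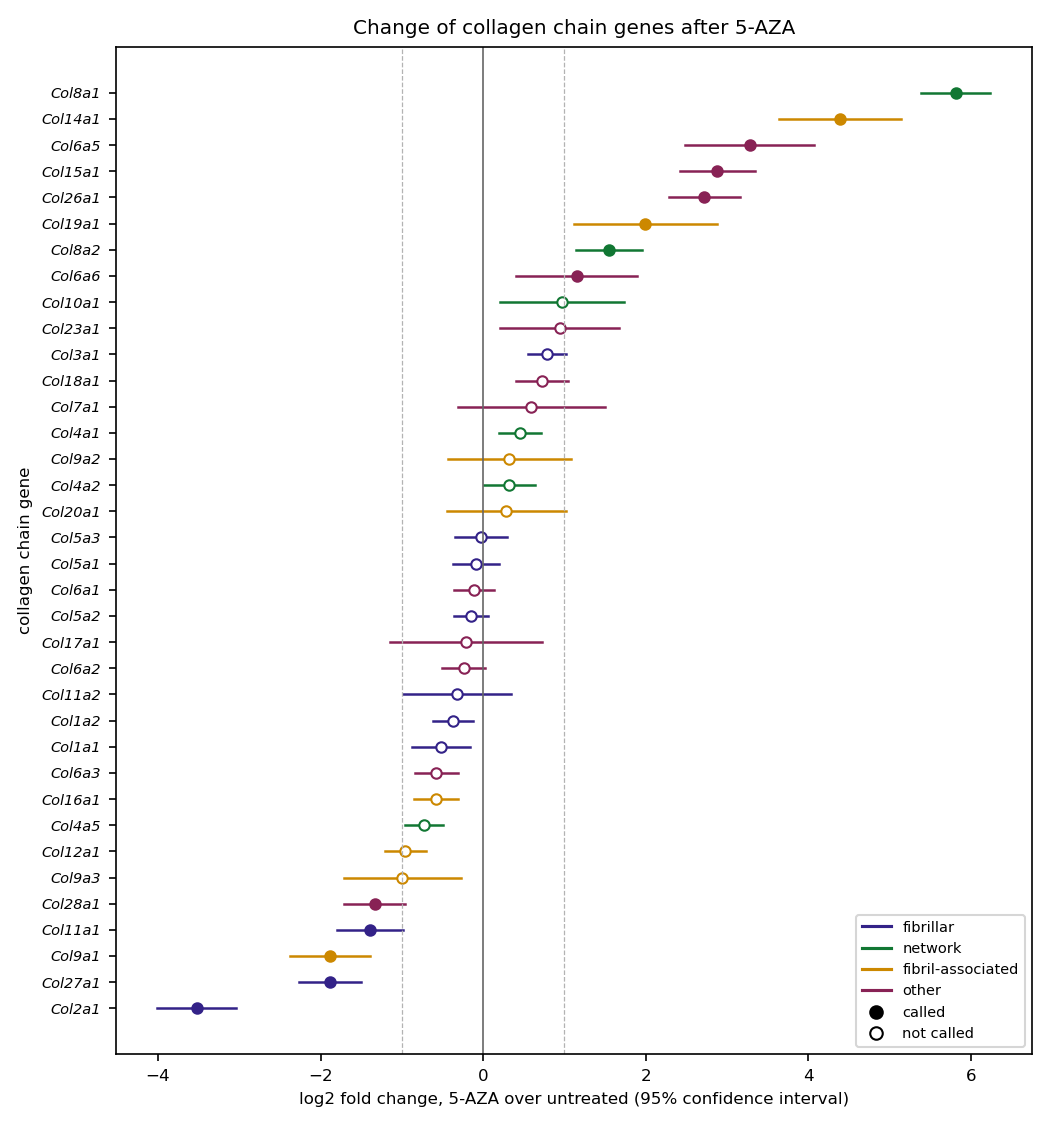
Log2 fold change (5-AZA over untreated, on the scale of log2(FPKM + 0.1)) of the 36 tested collagen chain genes with 95% confidence intervals from limma, coloured by class, with filled points for called genes and dashed lines at 2-fold. The 8 chains called higher run from Col8a1 at 5.81 to Col6a6 at 1.15, and the 5 called lower from Col28a1 at -1.33 to Col2a1 at -3.52.

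Among the 9 network chain genes 6 were tested, with 2 calls upward and 0 downward, beside 13.1% and 1.32% of all genes tested. The median log2 fold change of these chains was 0.71 (0.31 after quantile normalization). The calls were the type VIII chains, which form hexagonal lattices under endothelia and in vessel walls. Col8a1 had the largest log2 fold change of any collagen gene with the pseudocount of 0.1 FPKM, though not with one of 0.01 FPKM (6.17, beside 6.84 for Col14a1), going from 0.294 and 0.314 FPKM in untreated cells to 21.1 and 24.2 FPKM after 5-AZA. The means differed 74.6-fold, and the log2 fold change was 5.81 (SE 0.19, adjusted p = 3.13e-07). Among the chains it moved from rank 29 to rank 13. Col8a2, its partner, was at 2.12 and 1.85 FPKM in untreated cells and at 5.74 and 6.25 FPKM after 5-AZA, 3.02-fold higher in the mean (log2 fold change 1.55, SE 0.18, adjusted p = 0.000311). The Col8a2 call was lost without 5-AZA sample 101 (adjusted p = 0.0652) and without 102 (adjusted p = 0.0726), while the call of Col8a1 held in all 12 alternatives. The ratio of Col8a1 to Col8a2 went from 0.138 and 0.170 to 3.67 and 3.88, so the rarer of these chains in untreated cells was the more abundant after 5-AZA. Endothelial markers, of which Kdr and Tie1 were listed at 0 in every sample, summed to 0.631 and 0.341 FPKM in untreated cells and to 4.03 and 3.45 FPKM after 5-AZA. Of 4 tested, 3 were called higher, namely Emcn (log2 fold change 3.60), Cdh5 (2.05) and Tek (1.59), of which Emcn and Cdh5 were tested only because of their level after 5-AZA. Under quantile normalization the calls of Cdh5 (0.69) and Tek (0.61) were lost, as was that of Tek without either 5-AZA sample (adjusted p = 0.129 and 0.155).

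Type IV collagen of the basement membrane split by chain. Col4a1 was at 57.3 and 60.7 FPKM in untreated cells and at 73.6 and 88.7 FPKM after 5-AZA. Col4a2 was at 27.2 and 27.0 FPKM and then at 29.6 and 38.9 FPKM. Both 5-AZA samples were above both untreated ones for either gene, and the log2 fold change passed the adjusted p for Col4a1 (0.45, SE 0.11, adjusted p = 0.0198) and not for Col4a2 (0.32, SE 0.14, adjusted p = 0.132). When a sample was left out, the adjusted p of Col4a1 ranged from 0.0526 to 0.128. These genes share a promoter region and are read in opposite directions from RefSeq starts 21 bases apart on chromosome 8, with 37 and 33 CG pairs in their windows, and the ratio of Col4a1 to Col4a2 was 2.11 and 2.24 in untreated cells and 2.49 and 2.28 after 5-AZA. Col4a5, a chain of the basement membranes of kidney, lung and smooth muscle, was at 29.9 and 30.9 FPKM and then at 18.2 and 18.4 FPKM, a log2 fold change of -0.73 (SE 0.10, adjusted p = 0.000984). Summed over its curated (NM_) transcripts alone, Col4a5 had a log2 fold change of -0.09 (adjusted p = 0.727 by limma). Col4a6, the neighbour of Col4a5 with a start 1343 bases away on the X chromosome, was not tested, at 0.00381 and 0.00370 FPKM in untreated cells and 0.167 and 0.200 FPKM after 5-AZA. Col4a3 and Col4a4 stayed at or under 0.0743 FPKM in every sample. Col10a1, the collagen of hypertrophic cartilage, was at 0.170 and 0.217 FPKM in untreated cells and at 0.418 and 0.535 FPKM after 5-AZA (log2 fold change 0.97, adjusted p = 0.0685), and its sign turned under quantile normalization (-0.30).

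Among the 9 fibril-associated chain genes 8 were tested, with 2 calls upward and 1 downward, beside 13.1% and 1.32% of all genes tested. The median log2 fold change of these chains was -0.15 (-0.83 after quantile normalization). The abundant members lay lower after 5-AZA and the calls upward were of chains that were near 0 before. Col9a1, the alpha 1 chain of the type IX collagen that coats cartilage fibrils, was at 25.2 and 23.6 FPKM in untreated cells and at 5.06 and 8.45 FPKM after 5-AZA. It was 3.62-fold lower in the mean, with a log2 fold change of -1.88 (SE 0.21, adjusted p = 0.000276, and 0.0665 without any limit on low values). Col9a3, another type IX chain, was at 7.12 and 8.66 FPKM and then at 2.62 and 5.77 FPKM. Its groups did not overlap, but the 5-AZA samples differed more from each other than the untreated ones did, and the log2 fold change of -0.99 (SE 0.32, adjusted p = 0.0513) missed the threshold, which it passed without untreated sample 1 (-1.13, adjusted p = 0.00575) and after centring on the median (-1.10, adjusted p = 0.0393). Col9a2 was low and overlapping, at 0.371 and 0.468 FPKM in untreated cells and 0.429 and 0.690 FPKM after 5-AZA.

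Col12a1, a fibril-associated chain of tendon and muscle sheaths, was at 38.2 and 37.7 FPKM in untreated cells and at 18.1 and 21.0 FPKM after 5-AZA. Its log2 fold change of -0.96 (SE 0.11, adjusted p = 0.000342) fell just short of 2-fold, which it passed without 5-AZA sample 102 (-1.06), under quantile normalization (-1.02) and after centring (-1.06). Col16a1 was at 18.9 and 16.9 FPKM and then at 11.7 and 12.2 FPKM, a log2 fold change of -0.58 (SE 0.12, adjusted p = 0.00750, and 0.0821 to 0.117 without untreated sample 1 or either 5-AZA sample). Col14a1, which like Col12a1 binds the surface of type I fibrils, was called higher. It was at 0.00420 and 0.0161 FPKM in untreated cells and at 1.83 and 2.65 FPKM after 5-AZA, with a log2 fold change of 4.39 (SE 0.33, adjusted p = 2.55e-05). The call held in all 12 alternatives, but the size did not, at 1.67 with a pseudocount of 1 FPKM, 6.84 with one of 0.01 FPKM and 3.44 under quantile normalization. Col19a1, a chain found in muscle basement membrane zones, was at 0.0252 and 0.00636 FPKM and then at 0.316 and 0.408 FPKM (log2 fold change 2.00, SE 0.39, adjusted p = 0.00563). The Col19a1 call was lost without 5-AZA sample 102 (adjusted p = 0.0522), under quantile normalization (0.59, adjusted p = 0.184), with a pseudocount of 1 FPKM (0.42) and with NM_ transcripts alone (adjusted p = 0.0914). Col14a1 and Col19a1 were tested only because of their level after 5-AZA. Col20a1 (log2 fold change 0.28, adjusted p = 0.581) was at most 0.701 FPKM in any sample and Col22a1 at most 0.0162 FPKM.

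The remaining 15 chains are those of beaded filaments, of basement membrane zones and of the cell membrane, of which 12 were tested. The calls were 4 upward and 1 downward, beside 13.1% and 1.32% of all genes tested. The median log2 fold change was 0.66, with its sign turned after quantile normalization (-0.16). The main chains of type VI collagen, the beaded filament around muscle fibres and in most connective tissue, ranked among the most abundant collagen mRNAs. Col6a1 was at 424 and 434 FPKM in untreated cells and at 368 and 428 FPKM after 5-AZA (log2 fold change -0.11, interval -0.36 to 0.14, adjusted p = 0.519). Col6a2 was at 126 and 124 FPKM and then at 95.6 and 117 FPKM (-0.24, interval -0.50 to 0.02, adjusted p = 0.178). The ratio of Col6a1 to Col6a2 was 3.36 and 3.50 in untreated cells and 3.85 and 3.65 after 5-AZA. Col6a3, the longest chain of the type VI molecule, was at 77.3 and 63.8 FPKM and then at 47.2 and 47.1 FPKM, a log2 fold change of -0.57 (SE 0.11, adjusted p = 0.00648). Without untreated sample 1 or either 5-AZA sample the adjusted p of Col6a3 was between 0.0863 and 0.177. Its ratio to Col6a1 was 0.182 and 0.147 before and 0.128 and 0.110 after.

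The chains that can take the place of alpha 3 in type VI collagen were rare in untreated cells. Col6a5 was at 0.0116 and 0.00569 FPKM in untreated cells and at 0.854 and 1.06 FPKM after 5-AZA, with a log2 fold change of 3.28 (SE 0.35, adjusted p = 0.000183) that fell to 0.96 with a pseudocount of 1 FPKM. It was tested only because of its level after 5-AZA. Col6a6 was at 0.238 and 0.167 FPKM and then at 0.586 and 0.546 FPKM (log2 fold change 1.15, SE 0.32, adjusted p = 0.0330). The Col6a6 call was lost when any of the 4 samples was left out (adjusted p from 0.0701 to 0.199), with a pseudocount of 1 FPKM (0.38), with no limit on low values (adjusted p = 0.0671) and with NM_ transcripts alone (adjusted p = 0.321), and under quantile normalization its sign turned (-0.051). Col6a4 was listed at 0 in 3 samples and at 0.0138 FPKM in 5-AZA sample 101.

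Col15a1 and Col18a1 encode the collagens of the zone between basement membrane and stroma whose ends can be released as fragments that act on vessels. Col15a1 was at 5.87 and 4.01 FPKM in untreated cells and at 31.5 and 42.0 FPKM after 5-AZA, 7.44-fold higher in the mean (log2 fold change 2.88, SE 0.20, adjusted p = 1.62e-05). It moved from rank 22 to rank 9 among the chains. Without 5-AZA sample 101 or 102 its log2 fold change was 3.09 or 2.67 with an adjusted p of 0.0597 or 0.0704, so that the call was lost while the size held. Col18a1 was at 13.0 FPKM in both untreated samples and at 19.1 and 24.3 FPKM after 5-AZA, a log2 fold change of 0.72 (SE 0.14, adjusted p = 0.00523, and 0.0729 without 5-AZA sample 102). Col26a1, a chain with an EMI domain, was at 1.90 and 1.78 FPKM in untreated cells and at 10.8 and 14.9 FPKM after 5-AZA, 6.99-fold higher in the mean (log2 fold change 2.72, SE 0.19, adjusted p = 1.62e-05), and the call held in all 12 alternatives. Col28a1, a chain related to type VI and known from sheaths of peripheral nerves, was the only member of this class called lower, from 9.35 and 8.05 FPKM to 3.16 and 3.62 FPKM, 2.57-fold in the mean (log2 fold change -1.33, SE 0.16, adjusted p = 0.000438). The Col28a1 call was lost without 5-AZA sample 101 (adjusted p = 0.0745), without 102 (adjusted p = 0.0660) and with NM_ transcripts alone (adjusted p = 0.368).

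The transmembrane chains and Col7a1 were low. Col23a1 was at 0.527 and 0.313 FPKM in untreated cells and at 0.793 and 0.967 FPKM after 5-AZA (log2 fold change 0.94, adjusted p = 0.0658, and -0.12 under quantile normalization). Col17a1, of epithelial attachment, was between 0.0788 and 0.187 FPKM with overlapping groups. Col7a1, of the anchoring fibrils of skin, was at 0.0513 and 0.0684 FPKM and then at 0.121 and 0.162 FPKM (log2 fold change 0.59, adjusted p = 0.334, and -0.73 under quantile normalization). Col13a1 was listed at 0 in 3 samples and Col25a1 in all 4.

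The total of all 44 chains was 2539 and 2465 FPKM in untreated cells and 2565 and 2846 FPKM after 5-AZA. As a share of the mRNA FPKM of the sample it was 0.738% and 0.737% in untreated cells and 0.781% and 0.787% after 5-AZA. Both 5-AZA samples lay above both untreated ones by a mean of 0.0464 percentage points, with an exact two-sided permutation p of 0.333, the smallest that 2 samples against 2 can give. Fibrillar chains held 0.486% and 0.480% of the mRNA FPKM in untreated cells and 0.547% and 0.535% after 5-AZA. Network chains held 0.0340% and 0.0362% and then 0.0453% and 0.0490%. Fibril-associated chains held 0.0262% and 0.0263% and then 0.0123% and 0.0143%, and were the class whose share was lower in both 5-AZA samples by the largest factor. The remaining chains held 0.192% and 0.194% and then 0.176% and 0.188%. Chains with at least 1 FPKM in both samples of a group numbered 25 in untreated cells and 26 after 5-AZA.

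**Figure D3:**
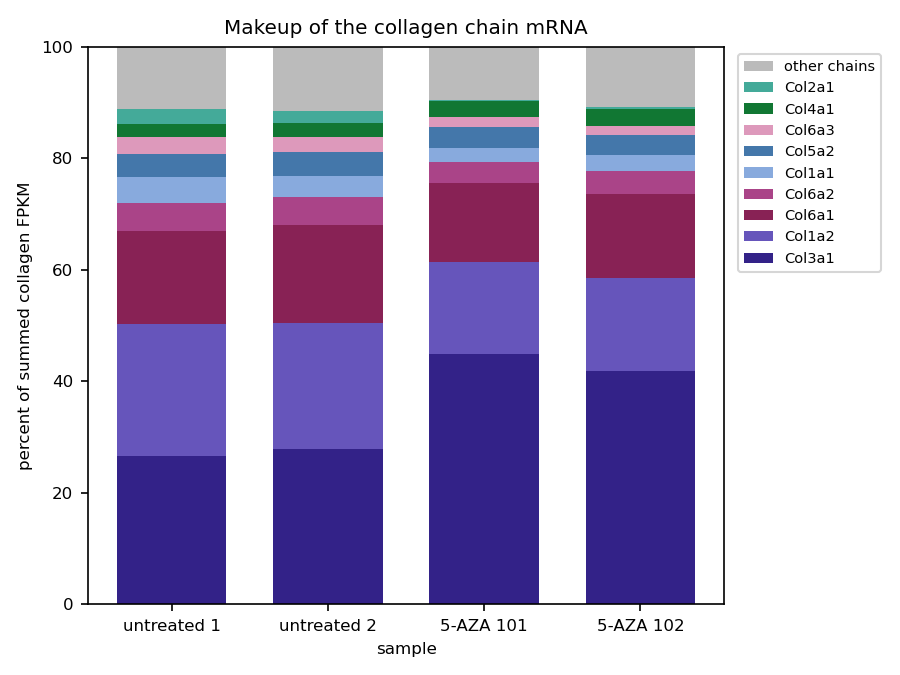
Percent of the summed FPKM of all 44 collagen chain genes held by 9 abundant chains and by the other chains together, as stacked bars for each sample. Col3a1 takes 26.6% and 27.8% in the untreated samples and 45.0% and 41.8% in the 5-AZA samples, while Col1a2 takes 23.6% and 22.6% and then 16.4% and 16.7%.

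Within this total Col3a1 took 26.6% and 27.8% in untreated cells and 45.0% and 41.8% after 5-AZA. Col1a2 took 23.6% and 22.6% and then 16.4% and 16.7%. Col6a1 took 16.7% and 17.6% and then 14.3% and 15.1%. The share of Col2a1 went from 2.66% and 2.32% to 0.161% and 0.240%.

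The table lists 201 transcripts of the 44 genes, of which 88 were tested. By limma 5 transcripts of 4 genes were called higher and 8 transcripts of 7 genes lower, beside 2.1% and 0.262% of the 35557 transcripts tested. Few or none were called in either direction when any sample was left out, and the matching numbers over all transcripts are not given here. For Col2a1 both curated variants were lower: NM_031163.3 was at 54.5 and 43.7 FPKM in untreated cells and at 3.49 and 4.95 FPKM after 5-AZA, and NM_001113515.2 at 11.7 and 12.7 FPKM and then at 0.627 and 1.64 FPKM. The log2 fold changes were -3.52 (SE 0.22, adjusted p = 0.00337) and -3.45 (SE 0.44, adjusted p = 0.0231), so that the share of the first variant, 80.7% and 76.6% before, was 84.6% and 72.4% after. The variants of Col6a3 parted. NM_001243008.1 was at 54.1 and 47.9 FPKM in untreated cells and at 24.2 and 24.0 FPKM after 5-AZA (log2 fold change -1.07, SE 0.11, adjusted p = 0.0136). NM_001243009.1 was at 23.3 and 15.9 FPKM and then at 22.9 and 23.1 FPKM (log2 fold change 0.26, SE 0.20, adjusted p = 0.598). The share of the first variant in the gene was 69.9% and 75.1% in untreated cells and 51.4% and 51.0% after 5-AZA.

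For Col4a5 the predicted transcript XM_006528696.3 was called lower (6.93 and 6.40 FPKM, then 2.27 and 1.66 FPKM; log2 fold change -1.72, SE 0.26, adjusted p = 0.0364), while the curated variants NM_001163155.1 (log2 fold change -0.22, adjusted p = 0.585) and NM_007736.4 (0.20, adjusted p = 0.756) did not pass. Summed over its curated transcripts alone, the log2 fold change of Col4a5 was -0.09. For Col15a1 the reads were divided unevenly between transcripts, with XM_006537601.2 holding 63.9% of the gene in untreated sample 1 and 13.7% in untreated sample 2, a difference between replicates of the same group. NM_009928.3 of Col15a1 was called higher (log2 fold change 2.56, SE 0.32, adjusted p = 0.0217). The single transcripts of Col8a1 and the main ones of Col8a2, Col9a1, Col11a1 and Col27a1 were called in the direction of their gene, as were 2 predicted transcripts of Col26a1 and 1 of Col28a1. No transcript of Col14a1, Col19a1, Col6a5 or Col6a6 was called.

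**Figure D4:**
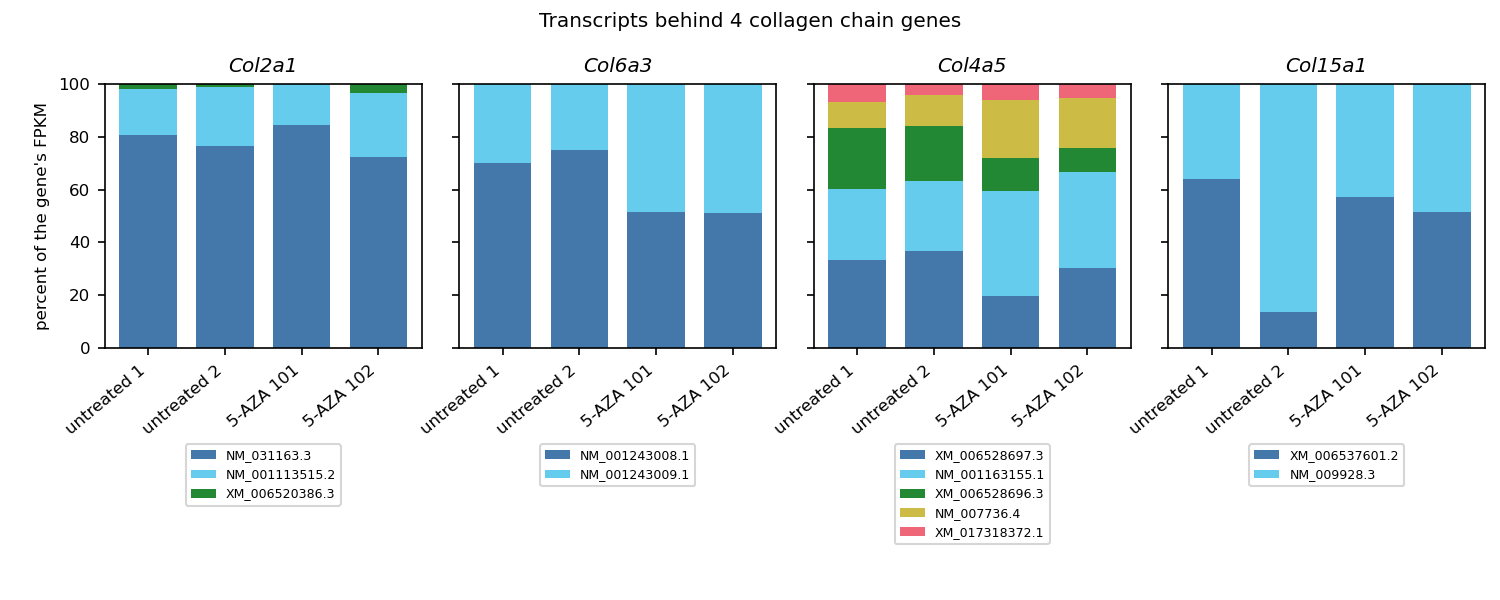
Percent of the FPKM of Col2a1, Col6a3, Col4a5 and Col15a1 held by each of their listed transcripts in each sample, as stacked bars. The lower segment of Col6a3, NM_001243008.1, covers 69.9% and 75.1% in the untreated and 51.4% and 51.0% in the 5-AZA samples, and the split of Col15a1 differs between the untreated samples.

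The genes that modify, fold, export, trim, cross-link and bind collagen were read beside the chains. Of 48 such genes 44 were tested, 2 were called higher and 2 lower by limma, and their median log2 fold change was -0.00. Of all genes tested, 13.1% were called higher and 1.32% lower. At any fold 7 passed the adjusted p with higher and 9 with lower levels, beside 18.6% and 5.93% of all genes. The largest change among them was that of Loxl2. This gene, a lysyl oxidase that links chains through lysine, was at 0.445 and 0.861 FPKM in untreated cells and at 11.4 and 19.3 FPKM after 5-AZA (log2 fold change 4.37, SE 0.32, adjusted p = 2.23e-05). Loxl4, of the same family, was at 31.1 and 33.8 FPKM and then at 13.7 and 16.3 FPKM (log2 fold change -1.11, SE 0.12, adjusted p = 0.000237). Lox itself, the most abundant of the 5 family members ahead of Loxl1 (log2 fold change 0.24, adjusted p = 0.118), was at 316 and 298 FPKM in untreated cells and at 215 and 183 FPKM after 5-AZA (log2 fold change -0.63, SE 0.11, adjusted p = 0.00314), under the 2-fold limit. Without 5-AZA sample 101 or 102 the adjusted p of Loxl2 was 0.0600 or 0.0728 and that of Lox 0.0535 or 0.0827, and without 101 that of Loxl4 was 0.0504.

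Among enzymes that modify the chains before folding, P4ha1, a catalytic subunit of prolyl 4-hydroxylase, was at 45.3 FPKM in both untreated samples and at 76.3 and 72.7 FPKM after 5-AZA (log2 fold change 0.72, SE 0.09, adjusted p = 0.000637). The other catalytic subunit genes did not follow: P4ha2 had a log2 fold change of -0.01 (adjusted p = 0.972), and P4ha3 was at 5.41 and 5.12 FPKM and then at 2.55 and 2.69 FPKM (-0.98, SE 0.17, adjusted p = 0.00298). P3h1, a prolyl 3-hydroxylase, was at 24.0 and 22.7 FPKM in untreated cells and at 12.9 and 15.0 FPKM after 5-AZA (-0.75, SE 0.12, adjusted p = 0.00218). Colgalt2, which adds galactose to hydroxylysine, was the modifying enzyme called lower, at 0.706 and 0.705 FPKM and then at 0.124 and 0.164 FPKM (-1.73, SE 0.32, adjusted p = 0.00447). Without a 5-AZA sample the adjusted p of P4ha3 was 0.0819 or 0.0790 and that of P3h1 0.0670 or 0.0521, while those of P4ha1 and Colgalt2 were at most 0.0373 and 0.0452 whichever sample was left out.

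Most of the abundant folding and trimming genes did not pass the test. P4hb, the shared subunit of the prolyl hydroxylase, had a log2 fold change of 0.04 (adjusted p = 0.854), Ppib, a prolyl isomerase, of 0.25 (adjusted p = 0.152), Serpinh1, the collagen chaperone HSP47, of 0.21 (adjusted p = 0.189), and Pcolce and Pcolce2, enhancers of propeptide cleavage, of 0.06 (adjusted p = 0.758) and -0.33 (adjusted p = 0.110). Fkbp10, a chaperone with prolyl isomerase activity, passed the adjusted p under the 2-fold limit (-0.45, adjusted p = 0.0310, and at least 0.0546 when any sample was left out). Tmem38b, an ion channel of the endoplasmic reticulum, was at 2.69 and 2.44 FPKM in untreated cells and at 5.00 and 5.43 FPKM after 5-AZA (log2 fold change 1.00, SE 0.17, adjusted p = 0.00308), just under 2-fold, with an adjusted p of 0.0880 and 0.103 without 5-AZA samples 101 and 102. Of the collagen receptors, Mrc2, which takes up collagen for breakdown, was at 28.8 and 27.5 FPKM and then at 48.0 and 56.3 FPKM (log2 fold change 0.88, SE 0.11, adjusted p = 0.000534). Itga11, a collagen-binding integrin subunit, was called higher at 0.128 and 0.0822 FPKM and then 0.457 and 0.647 FPKM (log2 fold change 1.66, SE 0.36, adjusted p = 0.00955), a call lost without 5-AZA sample 101 (adjusted p = 0.0664), without 102 (adjusted p = 0.0905) and under quantile normalization (0.37). Itgb1 and Ddr2, the abundant receptor genes, had log2 fold changes of -0.08 (adjusted p = 0.566) and -0.10 (adjusted p = 0.494).

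**Figure D5:**
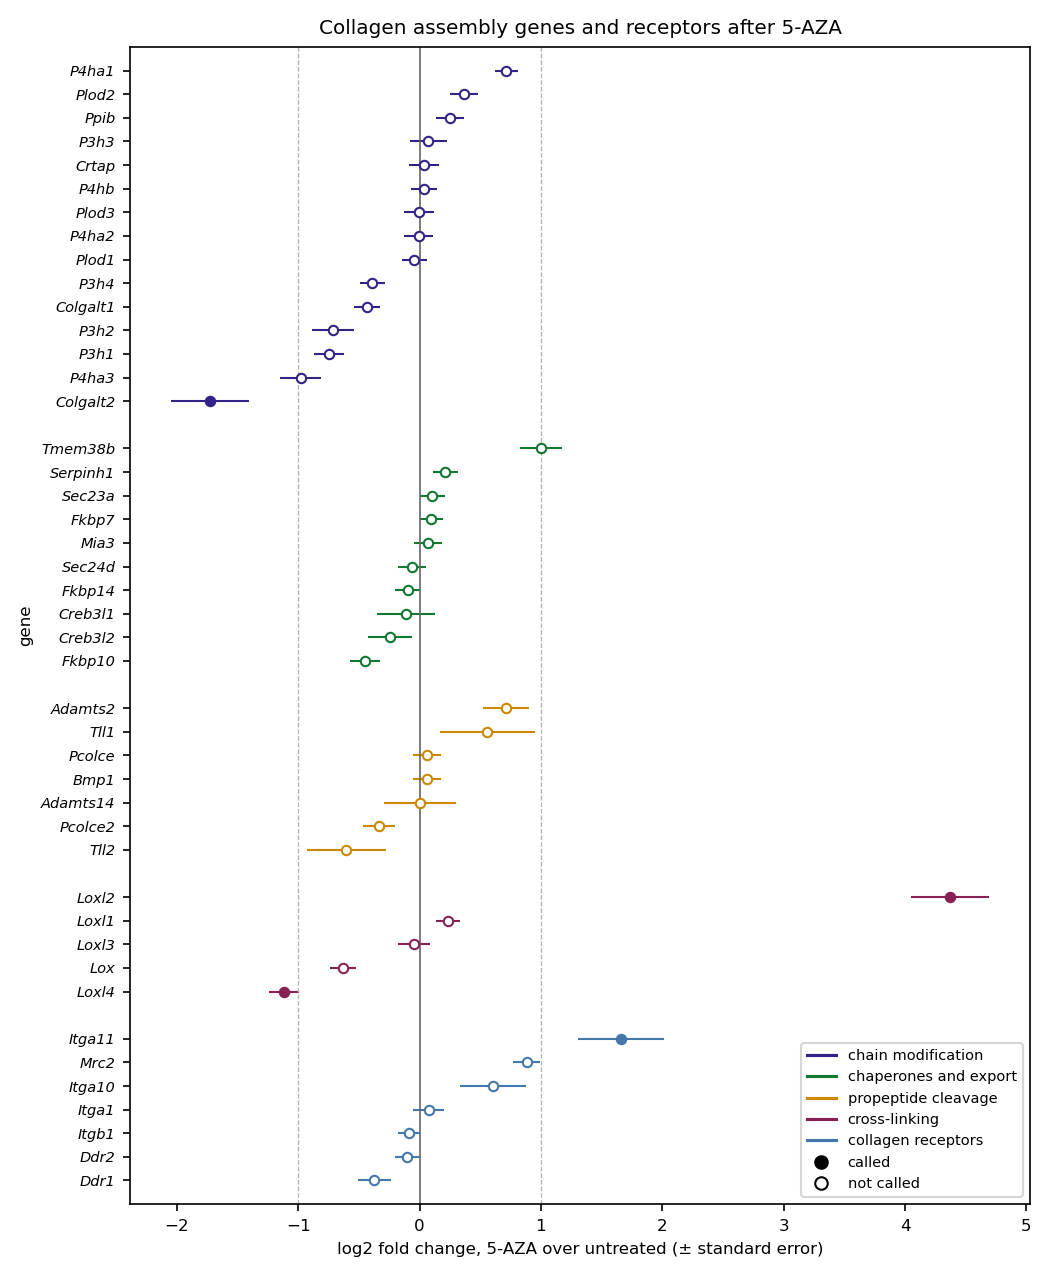
Log2 fold change (5-AZA over untreated) with its standard error for the 44 tested genes that act on collagen, grouped by step, with filled points for called genes and dashed lines at 2-fold. Most points lie between the dashed lines, and the filled points are Loxl2 and Itga11 on the right and Colgalt2 and Loxl4 on the left.

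Epithelial markers summed to between 0.474 and 1.25 FPKM in a sample, and of 3 tested Cdh1 was not called (log2 fold change -0.79) and Epcam was called higher (1.61), from an untreated mean under 0.1 FPKM and with the call lost under quantile normalization (0.25) and without either untreated sample or 5-AZA sample 101. Without 5-AZA sample 102 Epcam was not tested. Osteoblast markers summed to 18.7 and 33.1 FPKM in untreated cells and to 60.8 and 65.5 FPKM after 5-AZA, with Ibsp listed at 0. Of 6 tested, Bglap (log2 fold change 5.28, from an untreated mean under 0.1 FPKM), Phex (2.00), Bglap2 (1.86) and Dmp1 (1.76) were called higher, and the calls of Phex, Bglap2 and Dmp1 were lost without either 5-AZA sample, those of Bglap2 and Dmp1 also under quantile normalization. Cd68, a lysosomal protein of macrophages, was at 1.16 and 1.47 FPKM in untreated cells and at 2.27 and 3.69 FPKM after 5-AZA (log2 fold change 1.09, SE 0.27, adjusted p = 0.0191), a call lost without 5-AZA sample 101 (adjusted p = 0.0975), without 102 (adjusted p = 0.197) and under quantile normalization (0.68). The part of these markers in the change of the collagen chains was not tested.

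CircRNAs are closed loops made by back-splicing, and their level is given in RPM, junction reads scaled to the reads of the sample. The 11 circRNAs of collagen genes had 9 hosts, none carried a circBase identifier, and their junction reads numbered 21 and 24 in the untreated samples and 4 and 11 in the 5-AZA samples, of 13282, 13388, 10905 and 10448 in all circRNAs. Of the 11, 10 (90.9%) were found in a single sample, beside 68.3% of all circRNAs, and the fewest reads listed for any circRNA in a sample were 2. The exception was circRNA_2766 of Col11a1 (545 bases, plus strand, chr3:114055595-114066574), at 0.0753 and 0.118 RPM in untreated cells, which is 7 and 11 reads, and listed at 0 in both 5-AZA samples. Its log2 fold change on the scale of log2(RPM + 0.0213) was -2.44 (SE 0.41, unadjusted p = 0.00782, adjusted p = 0.119 by limma). It was the only collagen circRNA tested, since a circRNA had to be found in at least 2 samples, and was not called. No circRNA was called among the 1360 tested (0% of them), where 91 higher and 160 lower had an unadjusted p below 0.05, and limma with voom weights on the junction reads called 0 as well.

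The other 10 circRNAs were seen through at most 8 reads each. In the untreated samples these were circRNA_0057 of Col3a1 (6 reads), circRNA_2341 of Col5a1 (8 reads), circRNA_0058 of Col5a2, circRNA_0707 of Col1a1 and circRNA_2931 of Col27a1 (2 reads each), circRNA_3335 of Col1a2 (3 reads) and circRNA_3730 of Col4a1 (4 reads). In the 5-AZA samples they were circRNA_2340 of Col5a1 (4 reads), circRNA_0429 of Col6a1 (5 reads) and circRNA_3334 of Col1a2 (6 reads). Of these, 2 are not spliced from the exons of their host in its own direction, circRNA_3335 being listed as intronic and circRNA_3730 as antisense. A difference between groups was not detectable for these at this depth. All 11 lie inside the GRCm38 span of their host gene, as do 98.2% of the 4047 circRNAs whose host could be matched, whereas the submitters' processing notes name mm9.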

How the data were processed

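RNA from 2 untreated and 2 5-AZA samples of C3H10T1/2 was analysed. The authors depleted ribosomal RNA, made stranded libraries and deposited FPKM values per mRNA transcript and RPM values per circRNA. The submitters' processing notes list Trimmomatic, HISAT2, Bowtie2 2.2.9, eXpress 1.5.1 and the build mm9, with no role for each. The lncRNA table was not used here. The study calls the samples of a group biological repeats but does not say whether they were separate cultures, so the p-values measure the spread between these samples, which may be technical, and 2 samples a group limit every result.

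FPKM were summed per gene symbol and log2(FPKM + 0.1) entered the linear models of limma 3.58.1 under R 4.3.3, with moderated variances that follow the mean level, on the 13199 genes, or 35557 transcripts, with a mean of at least 0.1 FPKM, with Benjamini-Hochberg adjustment over all of them. Because the values are not counts, the authors' test, DESeq, was not repeated. Calls needed an adjusted p below 0.05 and over 2-fold, the limits of the authors. For circRNAs the pseudocount was the smallest deposited RPM above 0 (0.0213), and reads were obtained by dividing each RPM by the step of its sample, which gave between 92903364 and 93920706 reads behind the RPM of a sample. Shares were compared by an exact permutation test over samples. The fit was also run on simulated data in which as many genes were raised as lowered, unlike the calls made here. No result rests on that run.

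The chain genes, classes, gene lists and markers were chosen with earlier results of these data known. Values are given for each chain with at least 1 FPKM in both samples of a group, each chain called, each collagen circRNA, and, of the other lists, called genes and the 2 most abundant genes of a list, with muscle and adipocyte markers as sums and the range of their changes. Further genes and transcripts were picked as examples once their values were known. Other pseudocounts, limits on low values, scalings, variances without a trend, curated (NM_) transcripts alone and the omission of each sample were tried. Promoter sequences are from RefSeq, build GRCm38.p6. The summed result of a further marker list is not reported here.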

Additional observations from a re-analysis of the deposited data

How the results depend on the processing

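The 8 collagen chains called higher became 5 with a pseudocount of 1 FPKM and 5 with a limit of 1 FPKM. Over all genes the 1724 calls upward became 875 and 845. Fewer chains, and fewer of all genes, were called higher when either 5-AZA sample was left out. The 5 chains called lower became 3 with no limit on low values, and their number varied when a sample was left out. Over all genes the 174 calls downward became 83 with no limit. Of the 13 called chains 5 (Col2a1, Col8a1, Col14a1, Col26a1 and Col27a1) kept their call in all 12 alternatives. The 2 assembly genes called higher became 1 with a pseudocount of 1 FPKM, with no limit, with a limit of 1 FPKM and under quantile normalization. Their number varied when a sample was left out. Over all genes the 1724 calls upward became 1179 with no limit and 1041 under quantile normalization. The 2 assembly genes called lower became 1 with a pseudocount or limit of 1 FPKM and 5 under quantile normalization, and their number varied when a sample was left out. Over all genes the 174 calls downward became 86 with that pseudocount, 122 with that limit and 886 under quantile normalization. Of the collagen transcripts 0 to 2 higher and 0 lower were called when a sample was left out. The share of collagen in the mRNA FPKM differed by 0.0548 percentage points with NM_ transcripts alone and by 0.0322 without the 20 most abundant genes in the total, and by 0.0435 to 0.0493 when a sample was left out. Under quantile normalization the sign turned for Col6a6 (-0.051), Col10a1 (-0.30), Col23a1 (-0.12), Col7a1 (-0.73), Col9a2 (-0.82) and Col20a1 (-0.85). With NM_ transcripts alone the sign turned for Col5a1 (0.20). When a sample was left out, the log2 fold change ranged from -0.23 to 0.055 for Col5a1, from -0.21 to 0.17 for Col5a3 (0.00382 without untreated sample 2) and from -0.70 to 0.061 for Col11a2, each positive without 5-AZA sample 101. The causes were not tested. No collagen circRNA was called under any setting, voom weights on junction reads (chosen after seeing the data) included. With circRNAs required in all 4 samples, or without an untreated sample, none was tested, and the planned count test of circRNA reads was not run. Depth cannot be given for FPKM.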
